A study of Mus musculus with 6 samples.

Results

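The genes described here are 10 receptors through which hypothalamic and local signals are known to act on prolactin release. They were chosen by name from a table of transcript levels in sorted mouse pituitary cells, and all 10 were found among its 22869 genes with a symbol. RNA had been sequenced from somatotropes, the growth hormone cells, and from lactotropes, the prolactin cells, each sorted by FACS from pituitaries of mice 6 to 8 weeks old, females of a CD1 x C57BL/6 hybrid cross. Each cell type had 3 libraries, numbered as biological replicates 1 to 3, and no animal had received a treatment. The sources used here do not give the sorting marker or how many animals stand behind a library. A p-value thus measures the spread between these libraries, which may be technical. Where the replicate number enters as a block, the p-value measures the spread of differences between same-numbered libraries. Levels are in FPKM, which divides the fragments of a transcript by its length and by the library's total, so levels of different genes are compared per length.

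Dopamine from the hypothalamus reaches lactotropes through the portal blood and holds prolactin release down through the D2 receptor, which couples to inhibitory G proteins. Thyrotropin-releasing hormone (TRH), vasoactive intestinal peptide (VIP), PACAP, angiotensin II and oxytocin are known to stimulate release, the first and the last of these and angiotensin II mainly through Gq and phospholipase C, VIP and PACAP mainly through Gs and cyclic AMP. Endothelins act through type A and type B receptors, and kappa opioid receptors are known to raise prolactin mainly by acting on hypothalamic dopamine neurons.

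The libraries differed in ways that touch every result below. Lactotrope 3 listed 14.9% of the 11642 tested genes (mean over libraries 1 FPKM or more) at 0, against 0.232% to 2.95% in the other 5 libraries, so a 0 is given as listed and not as absence. Single-exon genes with low values stood on whole fragments in replicate 1, from which fragments per receptor could be estimated there. Depth is unknown for the other 4. The labels held for the defining hormones: Prl exceeded Gh in all 3 lactotrope libraries (49.4-, 3.67- and 19.5-fold in replicates 1 to 3), and the ratio of Prl to Gh was 0.123, 0.449 and 0.564 in somatotropes. Prl was thus present in the somatotrope libraries and Gh in the lactotrope libraries, and in such bulk samples fewer cells of a type and less RNA per cell cannot be told apart.

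Of the 10 receptors, 5 averaged 1 FPKM or more and entered the test, namely Drd2, Agtr1a, Ednra, Ednrb and Adcyap1r1. Agtr1a reached this mean through lactotrope 1 and Adcyap1r1 through somatotrope 2. The other 5, Trhr, Oxtr, Oprk1, Vipr1 and Vipr2, had means of 0.0609 to 0.786 FPKM and were left out of the test over all genes. Lactotrope 1 had all 10 above 0, somatotrope 1 had 9, and lactotrope 3 had 4. The summed level of the 10 was 15.6, 36.3 and 20.8 FPKM in somatotropes 1 to 3 and 36.3, 23.1 and 5.65 FPKM in lactotropes 1 to 3.

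**Figure D1:**
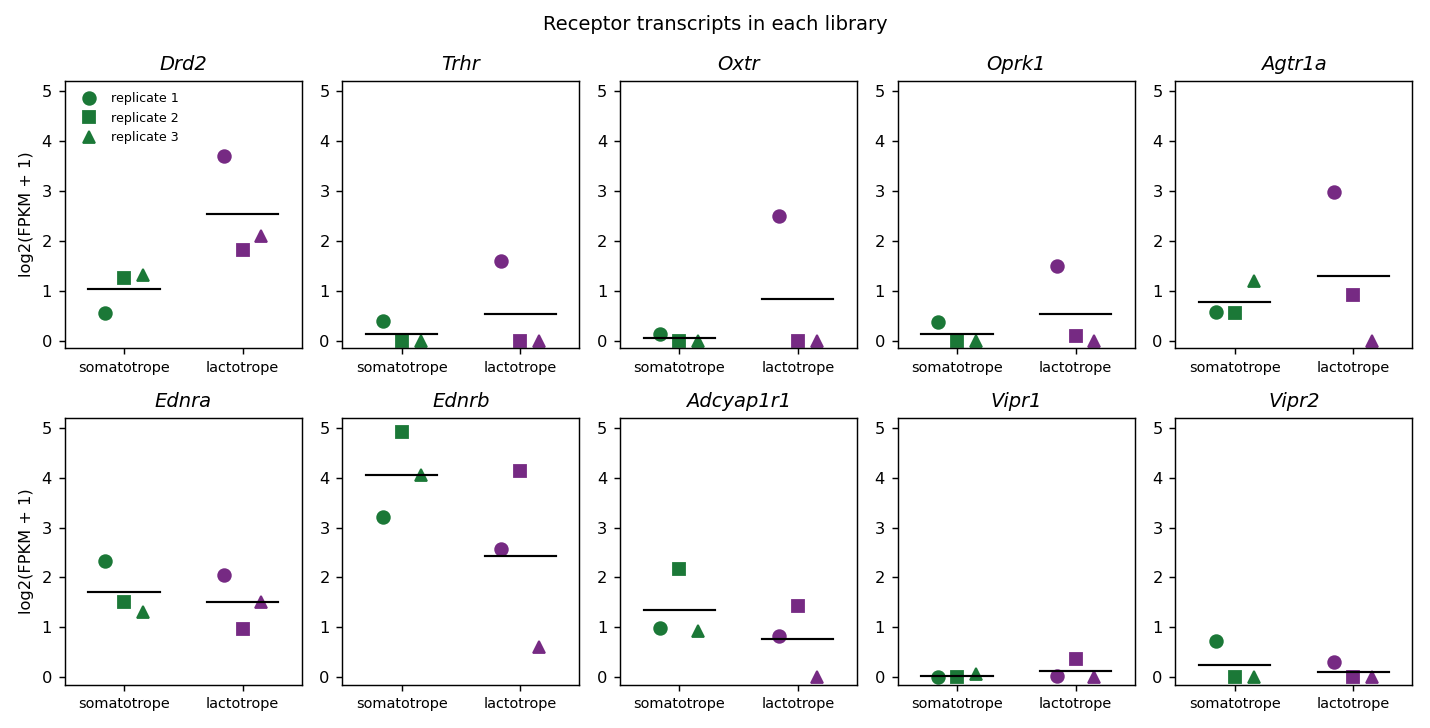
Level of each of the 10 receptors as log2(FPKM + 1), with 1 panel per gene, somatotrope libraries in green and lactotrope libraries in purple, symbol shapes for the replicate numbers and black lines for the cell type means. All 3 lactotrope libraries lie above all 3 somatotrope libraries for Drd2, Ednrb has the highest level in every somatotrope library, and Trhr, Oxtr and Oprk1 stand out in lactotrope 1.

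The first question was where the receptor for dopamine was found. Drd2, which encodes the D2 receptor, stood at 11.9, 2.51 and 3.29 FPKM in the lactotrope libraries 1 to 3, against 0.464, 1.40 and 1.49 FPKM in somatotropes 1 to 3. Every lactotrope library lay above every somatotrope library, a separation found toward lactotropes in 1.15% of tested genes, and lactotrope 1 was the highest by far. Of the 5 tested receptors, Drd2 was the 1 that was separated in either direction. Lactotropes exceeded somatotropes 25.6-fold in replicate 1, 1.79-fold in replicate 2 and 2.21-fold in replicate 3, and the ratio of means was 5.27. In rank, 81.6%, 67.4% and 78.3% of all genes had a lower level than Drd2 in lactotropes 1 to 3, and 40.8%, 59.6% and 62.1% in somatotropes 1 to 3. Drd2 lies on mouse chromosome 9 from 49148767 to 49215319 on the plus strand (mm9).

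On the log2(FPKM + 1) scale, which understates the change of low genes, the Drd2 difference was -1.49 (SE 0.75, somatotrope minus lactotrope) and did not pass limma's test over all genes (adjusted p = 1.00, and 0.392 with the replicate number as a block). For Drd2 by itself a two-sided exact permutation test returned p = 0.1, and with 3 libraries a side no lower p can be reached. With both replicate 3 libraries left out and the replicate block kept, Drd2 passed limma's test, with a difference of -1.84 (SE 0.44, adjusted p = 0.0243). That fit rests on replicates 1 and 2 alone. In it 1.8% of genes passed in either direction and 1.34% were called higher in lactotropes. It called 209 genes, against 0 without replicate 1 and 2 without replicate 2. Over the 21 alternatives for Drd2 the adjusted p ran from 0.0243 to 1.00. The difference was -0.91 without lactotrope 1, -0.67 without replicate 1 and -0.69 with array weights, which give variable libraries less weight. With array weights and the block, 0.369% of genes and none of the receptors passed.

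Drd2 was set beside the hormone that its ligand controls. Prl was 195325, 25171 and 148913 FPKM in lactotropes 1 to 3 and 10464, 8709 and 24481 FPKM in somatotropes 1 to 3. Across the 6 libraries Drd2 and Prl had a Pearson r of 0.87 and a Spearman rho of 0.94 on the log2 scale, given as a description. The libraries are paired by replicate number, and depth was not equal (29.2 M fragments in somatotrope 1, 17.6 M in lactotrope 1, unknown in the others). Per 100000 FPKM of Prl, Drd2 was 6.07, 9.98 and 2.21 FPKM in lactotropes and 4.43, 16.1 and 6.08 FPKM in somatotropes, ranges that overlapped. Melanotropes also carry D2 receptors. Their marker Pax7 stayed at or below 0.127 FPKM in every library, and corticotrope and melanotrope markers summed to between 426 and 888 FPKM in lactotropes and between 110 and 5779 FPKM in somatotropes. Of the 2 most abundant of these markers, Pomc was highest in somatotrope 3 (5758 FPKM) and Tbx19 in lactotrope 1 (15.4 FPKM). The part corticotropes and melanotropes had in the Drd2 values was not tested.

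By the rule that names the genes most like a receptor over the 6 libraries, Drd2 was followed by 9030224M15Rik (Pearson r = 0.96), Mir705 (r = 0.952) and Mir205 (r = 0.939). All 3 had their highest level in lactotrope 1, at 5.53, 4.15 and 5.84 FPKM.

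Promoter sequences are shown for 4 receptors that fall into 2 kinds of pattern. Drd2 and Oxtr were highest in lactotrope 1, and Ednrb and Adcyap1r1 were highest in somatotrope 2. Sequences were found for 7 of the 10 receptors; Trhr, Agtr1a and Oprk1 had none. Each is the 250 bases before the gene's start in RefSeq on GRCm38.p6, 5′ to 3′ on the gene's strand: chromosome 9 from 49340153 to 49340402 for Drd2, chromosome 6 from 112489826 to 112490075 for Oxtr, chromosome 14 from 103843702 to 103843951 for Ednrb and chromosome 6 from 55451728 to 55451977 for Adcyap1r1. Capitals mark a match to any of 3 motifs searched on both strands.
Drd2: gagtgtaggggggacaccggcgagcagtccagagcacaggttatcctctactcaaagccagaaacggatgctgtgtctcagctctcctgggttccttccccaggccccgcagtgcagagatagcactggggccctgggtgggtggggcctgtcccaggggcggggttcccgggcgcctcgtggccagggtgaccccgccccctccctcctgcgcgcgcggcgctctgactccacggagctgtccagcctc
Oxtr: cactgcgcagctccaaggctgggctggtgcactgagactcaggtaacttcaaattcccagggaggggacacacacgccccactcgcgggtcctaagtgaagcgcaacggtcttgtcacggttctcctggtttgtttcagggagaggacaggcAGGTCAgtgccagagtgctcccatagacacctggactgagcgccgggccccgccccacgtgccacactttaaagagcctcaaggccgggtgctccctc
Ednrb: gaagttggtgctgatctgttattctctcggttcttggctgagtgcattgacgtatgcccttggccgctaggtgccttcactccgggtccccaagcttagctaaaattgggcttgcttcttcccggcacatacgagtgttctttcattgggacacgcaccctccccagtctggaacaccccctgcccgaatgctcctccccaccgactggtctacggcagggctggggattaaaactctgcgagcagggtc
Adcyap1r1: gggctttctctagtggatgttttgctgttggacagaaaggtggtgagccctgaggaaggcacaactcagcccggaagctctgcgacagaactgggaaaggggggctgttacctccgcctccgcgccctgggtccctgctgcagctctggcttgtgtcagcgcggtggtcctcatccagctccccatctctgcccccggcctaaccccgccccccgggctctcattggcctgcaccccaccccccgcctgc
The motifs were the Pit-1 core ATGNATA, the nuclear receptor core AGGTCA and the SOX core AACAAT, which do not overlap one another in the marked sequence. Among 32851 promoters of this length, 7.92% held the Pit-1 core, 14.0% the nuclear receptor core and 9.42% the SOX core. In the 7 receptors there was 1 match, the nuclear receptor core in Oxtr, which begins 98 bases before the start. The windows were rich in G and C, at 68.8% for Drd2, 61.6% for Oxtr, 56.8% for Ednrb and 65.6% for Adcyap1r1, against a median of 52.4% over all promoters. A match is a description of letters, and the start in RefSeq may not be the one these cells use. For Drd2 the bases after that start were found in no GENCODE transcript of the gene, whereas those of the other 6 receptors were.

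The next comparison took the receptors for stimulating peptides that couple to Gq. Agtr1a, the type 1a angiotensin II receptor, had 6.88, 0.874 and a listed 0 FPKM in lactotropes 1 to 3 and 0.494, 0.469 and 1.29 FPKM in somatotropes 1 to 3. Lactotrope 1 was high, lactotrope 3 was lowest, and the cell types overlapped. Its log2 difference was -0.52 (SE 0.78), limma's adjusted p was 1.00 (0.759 with the block), and the sign turned without lactotrope 1, at 0.32 (adjusted p = 0.863). Over its 21 alternatives the adjusted p ran from 0.133 to 1.00. Agtr1b, its near-identical paralog, was listed at 0 in all 6 libraries, and the sources used here do not say how shared reads were assigned, so the Agtr1a values are uncertain to that extent.

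Trhr, the TRH receptor, had 2.01 FPKM in lactotrope 1 and 0.318 FPKM in somatotrope 1, and was listed at 0 in the other 4 libraries. With the transcript length of the GENCODE model, these values stand for about 128 and 34 fragments. Thyrotropes carry this receptor too, and the thyrotropin gene Tshb was 83.6 FPKM in lactotrope 1, 44.5 FPKM in somatotrope 1 and 6.11 to 52.4 FPKM in the others. The thyrotrope markers without Trhr (3 of 3 detected) summed to between 132 and 828 FPKM in lactotropes and between 308 and 1729 FPKM in somatotropes. Cga made up most of each sum, at 739, 126 and 285 FPKM in lactotropes 1 to 3 and 369, 297 and 1675 FPKM in somatotropes 1 to 3. Cga is on the gonadotrope list too, so the sum is not particular to thyrotropes. The part of thyrotropes in the Trhr values was not tested.

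Oxtr, the oxytocin receptor, had 4.62 FPKM in lactotrope 1 and 0.0973 FPKM in somatotrope 1, and was listed at 0 in the other 4 libraries. This was a 47.5-fold ratio within replicate 1, resting on about 383 and 13 fragments. Exact permutation tests of log2(FPKM + 1) gave p = 1.0 for both Trhr and Oxtr. Trhr, Oxtr and Vipr2 were above 0 in both replicate 1 libraries and at 0 in all others, a pattern of 3.13% of the 19557 genes with any value above 0.

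Oprk1, the kappa opioid receptor, couples to inhibitory G proteins like Drd2. It had 1.83, 0.067 and a listed 0 FPKM in lactotropes 1 to 3, against 0.300 FPKM in somatotrope 1 and a listed 0 in somatotropes 2 and 3. The higher lactotrope library of replicate 1 stood on about 151 fragments and the somatotrope library on about 41. The exact permutation p was 0.7.

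Drd2, Trhr, Agtr1a, Oprk1 and Oxtr, 5 of the 10 receptors, thus had their highest level in lactotrope 1, where 28.1% of the genes above 0 somewhere were highest. Within replicate 1 their ratios of lactotrope to somatotrope were 25.6, 6.32, 13.9, 6.11 and 47.5, beside 18.7 for Prl. They were grouped by that highest level, so the direction of these ratios was fixed by the choice. Vipr2 (0.363), Ednrb (0.597), Ednra (0.772) and Adcyap1r1 (0.801) went the other way in replicate 1. Corticotrope and melanotrope markers summed to 888 FPKM in lactotrope 1, above the 110 FPKM of somatotrope 1. In somatotropes 2 and 3 they summed to 1214 and 5779 FPKM. The part of corticotropes and melanotropes in the receptor values was not tested. Of the 5 receptors highest in lactotrope 1, Drd2 was the 1 that was higher in the lactotrope library of both replicates 2 and 3.

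**Figure D2:**
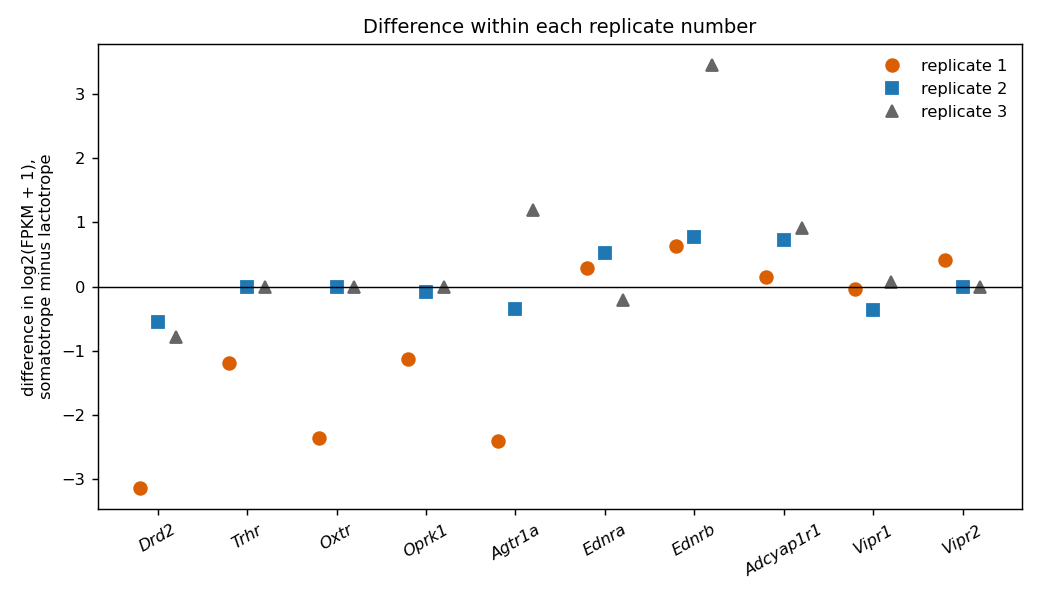
Difference in log2(FPKM + 1) between the somatotrope and the lactotrope library of the same replicate number for each receptor, with 1 symbol per replicate and a line at 0. Drd2 lies below 0 in all 3 replicates, Ednrb and Adcyap1r1 lie above 0 in all 3, and replicate 1 gives the lowest points for Trhr (-1.19), Oxtr (-2.36), Oprk1 (-1.12) and Agtr1a (-2.40).

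The endothelin receptors came next, and Ednrb was the receptor with the highest mean in both cell types. Ednrb, the type B receptor, had 8.21, 29.1 and 15.6 FPKM in somatotropes 1 to 3 and 4.90, 16.6 and 0.518 FPKM in lactotropes 1 to 3. The somatotrope library was the higher in every replicate, by 1.68-, 1.75- and 30.1-fold, but lactotrope 2 lay above somatotropes 1 and 3, so the cell types overlapped. Its log2 difference was 1.62 (SE 0.85), with a limma adjusted p of 1.00 (0.363 with the block; 0.322 to 1.00 over 22 alternatives) and an exact permutation p of 0.3. The difference was 0.71 without lactotrope 3, 2.47 without lactotrope 2 and 0.63 with array weights. Ednrb (mm9, chromosome 14, minus strand, 104213842 to 104243390) had 2 transcript rows with nearly equal values, of which the higher was used.

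Ednra, the type A receptor, had 4.05, 1.83 and 1.46 FPKM in somatotropes 1 to 3 and 3.13, 0.961 and 1.84 FPKM in lactotropes 1 to 3. The ranges overlapped, and replicate 1 was the higher in both cell types. The log2 difference was 0.21 (SE 0.70), limma's adjusted p was 1.00 (0.851 with the block), and the sign turned without somatotrope 1 (-0.11) and without lactotrope 2 (-0.06). Ednrb exceeded Ednra 2.02-, 15.9- and 10.7-fold in somatotropes and 1.57- and 17.3-fold in lactotropes 1 and 2, while in lactotrope 3 the ratio of Ednrb to Ednra was 0.282.

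Type B endothelin receptors are also found on endothelial cells and on other non-endocrine cells of the gland. The 7 endothelial markers other than Ednrb summed to between 0.987 and 3.74 FPKM in somatotropes and between 0 and 3.94 FPKM in lactotropes, and all 7 were listed at 0 in lactotrope 3. Stem and folliculostellate markers summed to 268, 1726 and 1191 FPKM in somatotropes 1 to 3 and to 151, 699 and 164 FPKM in lactotropes 1 to 3. Of these 8 markers 6 were higher in the somatotrope library in all 3 replicates, among them Mia1 and Cyp2f2, beside 22.9% of tested genes. Across the 6 libraries Ednrb and this sum had a Pearson r of 0.86 and a Spearman rho of 0.89, and the part of endothelial, stem or folliculostellate cells in the Ednrb difference was not tested. Among the genes most like Ednrb by the same rule were Maob (r = 0.996) and Apln (r = 0.993), which were highest in somatotrope 2 at 33.2 and 11.9 FPKM.

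**Figure D3:**
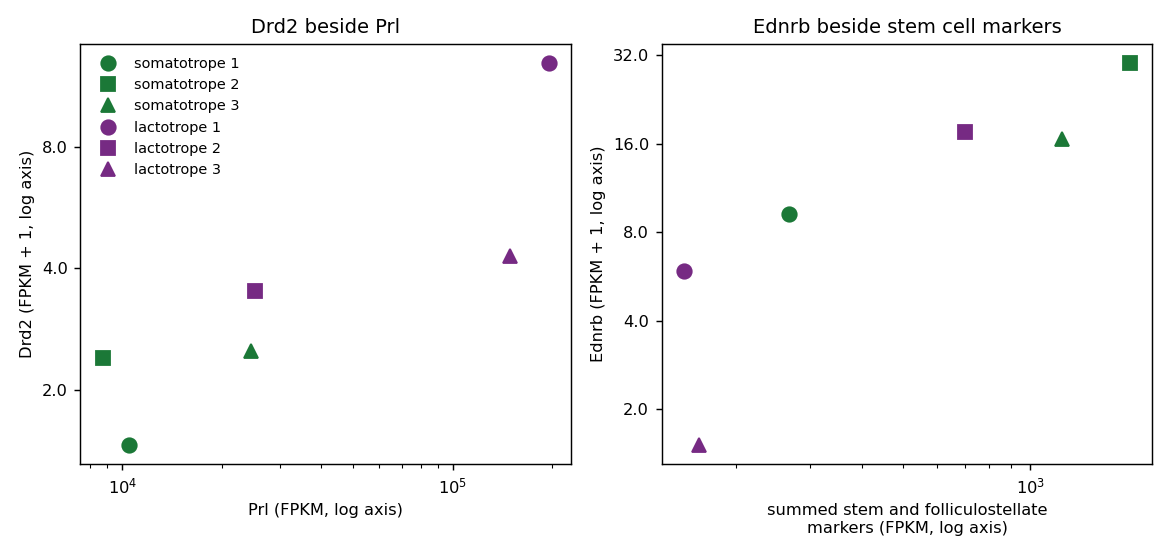
Left, Drd2 (FPKM + 1) against Prl (FPKM), and right, Ednrb (FPKM + 1) against the summed FPKM of 8 stem and folliculostellate markers, both on log axes with 1 point per library. Drd2 is highest in lactotrope 1, where Prl is also highest, and Ednrb is highest in somatotrope 2, where the marker sum is also highest.

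Receptors for VIP and PACAP, which couple to Gs, were low. Adcyap1r1, the PACAP type 1 receptor, had 0.977, 3.50 and 0.891 FPKM in somatotropes 1 to 3 and 0.783, 1.71 and 0.00125 FPKM in lactotropes 1 to 3. The somatotrope library was the higher in each replicate, 1.25-fold in replicate 1 and 2.05-fold in replicate 2, yet lactotrope 2 exceeded somatotropes 1 and 3. The log2 difference was 0.60 (SE 0.69), with a limma adjusted p of 1.00 (0.540 with the block; 0.54 to 1.00 over 21 alternatives). The difference was 0.19 without somatotrope 2, 0.22 without lactotrope 3 and 1.52 with a pseudocount of 0.1 FPKM. Its pattern over libraries was near that of Ednrb (Pearson r = 0.918, Spearman rho = 0.943), and its r with the stem and folliculostellate sum was 0.77. The tested genes most like it were Vps72, Dazap2 and Vill, all highest in somatotrope 2.

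Vipr1 and Vipr2 encode the 2 receptors that bind VIP and PACAP alike. Vipr1 was listed at 0 in somatotropes 1 and 2 and lactotrope 3, and had 0.0486 FPKM in somatotrope 3 and 0.0231 and 0.294 FPKM in lactotropes 1 and 2. The value in lactotrope 1 stands for about 2 fragments. Vipr2 had 0.646 FPKM in somatotrope 1 and 0.234 FPKM in lactotrope 1, about 64 and 14 fragments, and was listed at 0 in the other 4. Neither receptor reached 1 FPKM in a library.

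The receptors were ordered by mean level in each cell type, an order that moved when single libraries were left out. In somatotropes the means ran from Ednrb (17.6 FPKM) over Ednra (2.45), Adcyap1r1 (1.79), Drd2 (1.12) and Agtr1a (0.752) to Vipr2 (0.215), Trhr (0.106), Oprk1 (0.0999), Oxtr (0.0324) and Vipr1 (0.0162). Ednrb stood above Ednra by more than the spread of their paired differences, 2.34 ± 1.32 (SD, n = 3) on the log2 scale, and no other neighbours differed beyond that spread. In lactotropes the means ran from Ednrb (7.35 FPKM) over Drd2 (5.89), Agtr1a (2.58), Ednra (1.98), Oxtr (1.54), Adcyap1r1 (0.831), Trhr (0.670) and Oprk1 (0.633) to Vipr1 (0.106) and Vipr2 (0.0782). Drd2 stood above Agtr1a by 1.24 ± 0.75 (SD, n = 3), though the libraries of these genes overlapped. Ednrb and Drd2, the 2 highest, did not differ beyond their spread (-0.10 ± 2.11).

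Shares within a library do not depend on how libraries are scaled, and were computed after the values were seen. Drd2 made up 32.7%, 10.9% and 58.3% of the summed FPKM of the 10 receptors in lactotropes 1 to 3 and 2.98%, 3.86% and 7.17% in somatotropes 1 to 3. Ednrb made up 52.8%, 80.2% and 75% in somatotropes and 13.5%, 72.2% and 9.17% in lactotropes. The ratio of Drd2 to Ednrb was 0.0565, 0.0481 and 0.0956 in somatotropes and 2.42, 0.151 and 6.36 in lactotropes. All lactotrope libraries lay above all somatotrope libraries in this ratio, with lactotrope 2 the closest to them. Both receptors were taken for the ratio after their own differences were seen, so its separation adds no support to either.

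**Figure D4:**
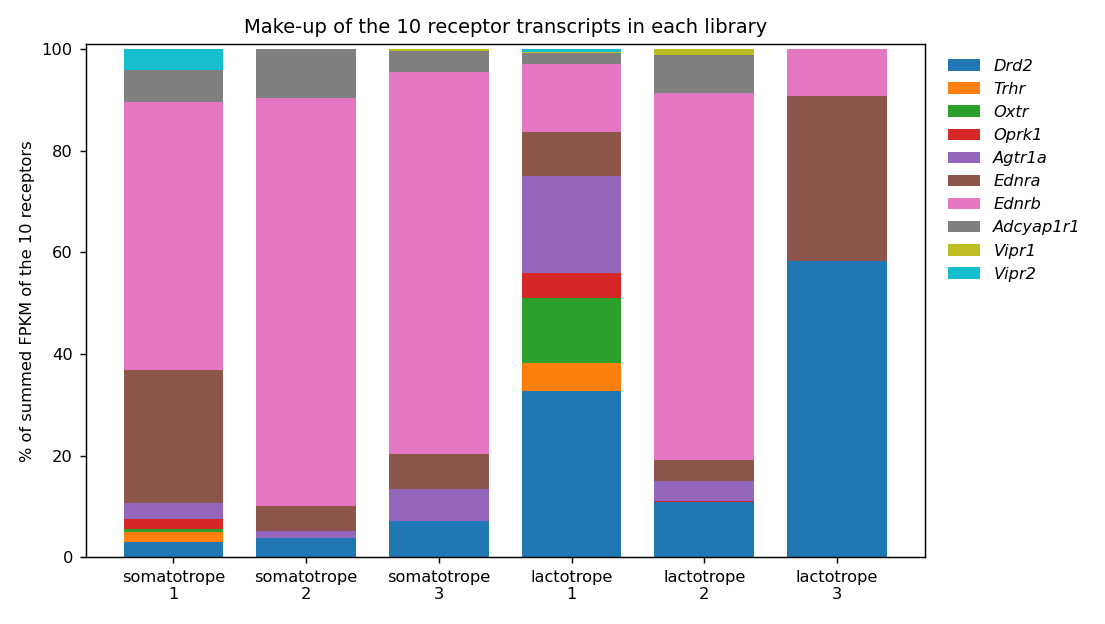
Percent of the summed FPKM of the 10 receptors made up by each receptor, 1 stacked bar per library. Ednrb is the largest share in all somatotrope libraries and in lactotrope 2 (72.2%), and Drd2 is the largest in lactotropes 1 (32.7%) and 3 (58.3%).

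Over all 11642 tested genes limma called none (0%) at an adjusted p of 0.05, with or without the block, and so 0 of the 5 tested receptors. Without the block 112 genes (0.962%) had an unadjusted p under 0.05, none of them a receptor; with it 1271 had (10.9%), among them Drd2 and Ednrb. In all 3 pairs the somatotrope library was the higher for Adcyap1r1 and Ednrb, as for 22.9% of tested genes, and the lactotrope library for Drd2, as for 11.2%. The median log2 difference of the 5 tested receptors was 0.21, beside 0.179 over all genes. That of all genes moved by -0.129 with median-ratio scaling and by -0.175 with quantile normalization, under which all 5 kept their sign.

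Further genes of these pathways were taken from lists chosen by function. None of their tested members passed limma's test with or without the block, and the counts below are of direction. Relatives of the 10 receptors were low: of 15 in the table, 3 were listed at 0 in all libraries, 13 stayed below 1 FPKM in each, and none had a mean of 1 FPKM. The most abundant were Sctr, the secretin receptor, at 0.811 ± 0.622 FPKM (SD, n = 3) in somatotropes against 0.321 ± 0.371 in lactotropes, and Avpr1b, a vasopressin receptor of corticotropes, which had 2.50 FPKM in lactotrope 1.

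Among 40 other receptors with a known effect on prolactin release, 10 were tested, 1 of them was higher in somatotropes in all 3 pairs and 0 in lactotropes, and the median log2 difference was 0.52. Sstr5, a somatostatin receptor, had 3.22 ± 4.16 FPKM (SD, n = 3) in somatotropes against 0.475 ± 0.496 in lactotropes, a log2 difference of 1.03 (SE 0.80). Cckar, a cholecystokinin receptor, had 6.41 FPKM in lactotrope 1 and at most 0.316 FPKM elsewhere. Prlr, through which prolactin signals, had 14.8 FPKM in somatotrope 1 and 7.14 FPKM in lactotrope 1, and 0.118 to 0.716 FPKM in the other 4 libraries. Without replicate 3 and with the block, Sstr5 passed limma's test (adjusted p = 0.0377), higher in somatotropes, where 1.8% of genes passed in either direction.

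Of 25 genes for ligands and for enzymes and transporters that make, carry or degrade them, 16 were tested, 6 had the higher somatotrope library in all 3 pairs and 0 the higher lactotrope library, and the median was 0.58. Penk, the enkephalin precursor gene, was the 1 member separated between the cell types, a separation found toward somatotropes in 2.51% of tested genes. It had 83.1, 6.22 and 21.8 FPKM in somatotropes 1 to 3 and 4.22, 2.05 and 1.58 FPKM in lactotropes 1 to 3. It passed with the block without replicate 3 (limma adjusted p = 0.00133), where 1.8% of genes passed in either direction. Ece1, which encodes an endothelin-converting enzyme, had 46.4 ± 15.4 FPKM (SD, n = 3) in somatotropes against 26.6 ± 17.8 in lactotropes. Edn1 was listed at 0 in all 6 libraries, Th, which makes the dopamine precursor, in all but lactotrope 2, and Trh in all but lactotrope 1. Edn3, the endothelin 3 gene, was above 0 in all 6 libraries, at 0.554 to 5.6 FPKM, and Vip had 8.76 FPKM in lactotrope 1 and a listed 0 to 4.78 FPKM in the others. Oxt and Avp, made by hypothalamic neurons, were 99.5 and 93.0 FPKM in somatotrope 3.

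Genes that carry the receptors' signals, a list of G protein subunits, phospholipase C enzymes, IP3 receptors and protein kinase C enzymes, numbered 27 tested of 30, with 7 higher in somatotropes in all 3 pairs and 3 in lactotropes and a median of 0.11. Gna14, an alpha subunit of the Gq family, had 5.39 ± 2.01 FPKM (SD, n = 3) in somatotropes against 1.88 ± 1.69 in lactotropes and was higher in somatotropes in all 3 pairs. Gnai2, an inhibitory alpha subunit through which Drd2 can signal, had 45.5 ± 3.35 and 57.8 ± 15.7 FPKM, which overlapped. Gng4, a gamma subunit, was higher in lactotropes in all 3 pairs, at 29.8 ± 24.8 FPKM (SD, n = 3) against 14.5 ± 16.6 in somatotropes.

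Genes that end receptor signals, the receptor kinases, arrestins and RGS proteins, numbered 17 tested of 29 in the table, with 3 higher in somatotropes in all 3 pairs and 6 in lactotropes and a median of 0.23. Rgs2, which acts on Gq, had 9.01, 10.4 and 46.4 FPKM in somatotropes 1 to 3 and 28.0, 50.7 and 61.4 FPKM in lactotropes 1 to 3, a log2 difference of -1.37 (SE 0.68). Rgs1 and Rgs10, which are known from leukocytes, had differences of -1.99 (SE 1.16) and -1.32 (SE 0.82). With the block and without replicate 3, Rgs2 (adjusted p = 0.00573), Rgs1 (adjusted p = 0.00264) and Rgs10 (adjusted p = 0.0461) passed limma's test, higher in lactotropes. That fit rests on replicates 1 and 2 alone and called 1.34% of genes higher in lactotropes. Leukocyte markers had the same direction, with 7 of 9 higher in lactotropes in all 3 pairs, beside 11.2% of tested genes. They summed to 36.9 to 528 FPKM in somatotropes and 144 to 1761 FPKM in lactotropes. The part of leukocytes in the Rgs values was not tested.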

How the data were processed

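FPKM values of 30399 RefSeq transcript rows were deposited in 1 table, and sample descriptions tied its columns to libraries. The submitters' processing notes name mm9, TopHat, edgeR and bcl2fastq 2.17.1.14; the sources used here do not say how reads were counted. Rows without a symbol (889) were left out, and each of 22869 genes took its row with the highest mean. FPKM values are not counts, so log2(FPKM + 1) was tested for the 11642 genes averaging 1 FPKM or more, using limma 3.58.1 (R 4.3.3) with its trend option and a Benjamini-Hochberg threshold of 0.05. The code was tested on simulated data. Same-numbered libraries deviated together from their group means (r over genes 0.763, 0.613 and 0.341 in replicates 1, 2 and 3). Labels do not say whether a number marks a shared animal or day, so blocked values stand beside unblocked ones. The exact permutation tests did not use the replicate number. Depth in somatotrope 1 (29.2 M fragments) and lactotrope 1 (17.6 M) came from 381 and 190 low values of single-exon genes, 100% of them within 0.1 of a whole fragment, and fragments per receptor used GENCODE M21 transcript lengths. They are estimates from single libraries with counting error, and also depend on these lengths and on how reads were assigned.

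The receptors and gene lists were chosen with earlier results of these data known. Genes named are the 10 receptors, examples of the 4 members of each list with the smallest p and the 4 most abundant, the 2 most abundant markers of other cell types, and the 3 genes most like each tested receptor, of which not all are reported here. Pax7, Agtr1b, Edn1, Edn3, Vip, Th, Trh, Oxt and Avp were named after their values were seen. Marker lists covered somatotrope, lactotrope, thyrotrope, gonadotrope, corticotrope and melanotrope, stem and folliculostellate, endothelial, mural and fibroblast, pituicyte and glia, leukocyte and erythroid cells; members were left out of their sums.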

Additional observations from a re-analysis of the deposited data

How the results depend on the processing

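Of the 5 tested receptors, Drd2, Ednrb and Adcyap1r1 kept the sign of their difference under every alternative run. The Agtr1a difference ran from -1.17 to 0.32 with single libraries left out and from -1.37 to 0.42 with pairs left out, and the Ednra difference from -0.11 to 0.48 over both. Agtr1a turned to 0.32 without lactotrope 1 and to 0.42 without replicate 1, with the block or without it, the last chosen after seeing the data. Ednra turned to -0.11 without somatotrope 1 and to -0.06 without lactotrope 2. The cause was not tested. Genes called by limma numbered 9 with array weights and 43 with array weights and the replicate block, none of them a receptor. Leaving out libraries or pairs gave 0 to 209 called genes, with 3 without somatotrope 1, 2 without replicate 2 and 209 without replicate 3 under the block. The block on all 6 libraries changed no call. Between 0 and 1 receptors were called with a pair left out, the 1 being Drd2 without replicate 3. In that fit 1 other receptor, 1 ligand gene and 3 desensitization genes were called, against 0 of each with other pairs left out. In the order of the 10 receptors, 2 places changed in either cell type with median-ratio scaling and 4 with rows of a gene summed; leaving out a library changed 0 to 6 places in somatotropes and 2 to 8 in lactotropes. With a minimum mean of 5 FPKM, Ednrb was the 1 receptor left. For Vipr1 the difference moved from -0.11 to -0.57 with a pseudocount of 0.1. Depth is unknown for 4 libraries, so a listed 0 there sets no limit.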

Other observations

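Markers of other cell types were summed in each library, as values that belong to no receptor. Gonadotrope markers summed to between 309 and 1780 FPKM in somatotropes and between 134 and 753 FPKM in lactotropes. Most of each sum was Cga (1675 FPKM in somatotrope 3), which is on the thyrotrope list too, so these sums are not separate from the thyrotrope ones. Lhb was 77.7 FPKM in somatotrope 3. Pituicyte and glia markers summed to between 4.77 and 131 FPKM in somatotropes, highest in somatotrope 3, where the neurohypophysial transcripts Oxt and Avp were also highest. Of that highest sum, Mbp alone made up 118 FPKM. Mural and fibroblast markers without Agtr1a and Ednra summed to 28.7 to 56.6 FPKM in somatotropes and 21.8 to 71.9 FPKM in lactotropes. Both replicate 3 libraries were high in erythroid markers, which summed to 2147 FPKM in the somatotrope one and 1769 FPKM in the lactotrope one; elsewhere the sums were 2.95 to 164 FPKM.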
